A study of Mus musculus with 12 samples.

Results

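The fibrillar collagen genes Col1a1, Col1a2, Col3a1, Col5a1, Col5a2 and Col5a3 and the type VI collagen genes Col6a1, Col6a2 and Col6a3 were taken by symbol from a table of 21705 genes. Of these 9 genes, 8 had a row, and all 8 passed the filter on low values (a mean over 12 livers no lower than 10), as did 12486 genes in all. Col6a3 was not analysed here. The table held liver mRNA of C57BL/6J female mice, 10 to 12 weeks old, of which 6 were given saline and 6 were given LNA29 by the tail vein. LNA29 is a mixture of locked nucleic acids, short modified oligonucleotides that bind and block a microRNA. One was directed against miR-29a and another against miR-29b and miR-29c, at 20 mg/kg each. All mice were fasted for 18 h, and livers were collected 7 days after dosing. The controls received saline without any locked nucleic acid, so that an effect of miR-29 inhibition and one of the oligonucleotide itself cannot be told apart in these livers. The paper also treated separate mice with a locked nucleic acid against miR-27b. It reported no significant change of liver Col1a1 or Col3a1 in them.

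Collagens are built from α chains that wind around each other in a helix. Type I collagen (α chains from Col1a1 and Col1a2) and type III collagen (Col3a1) form the bulk of the fibrils of the liver's connective tissue, type V collagen (Col5a1, Col5a2, Col5a3) starts fibrils and limits their width, and type VI collagen (Col6a1, Col6a2, Col6a3) forms beaded filaments beside them. In liver, these mRNAs come mainly from hepatic stellate cells and fibroblasts and not from hepatocytes. The miR-29 family is known for repressing collagen mRNAs through pairing of its seed (bases 2 to 8) with sites in their 3′ untranslated regions (UTRs).

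The mature forms of the miR-29 family, which LNA29 was designed to block, are shown with the seed in capitals because all members carry the same one (sequences from RefSeq, GRCm38.p6).
miR-29a-3p: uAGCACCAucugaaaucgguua
miR-29b-3p: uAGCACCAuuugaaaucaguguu
miR-29c-3p: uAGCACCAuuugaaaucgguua
The rows of the miR-29 precursor genes stood at 1, the value given to a gene without reads, in all 12 livers, so that the block of miR-29 itself could not be checked in this table. The paper reported a strong reduction of miR-29 in livers after LNA29, measured by quantitative PCR.

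The longest 3′ UTR of each collagen gene was searched on its sense strand for TGGTGCT, which pairs with bases 2 to 8, and for TGGTGCTA, the same match followed by an A (GENCODE M21, GRCm38). The processing notes name mm9 as the build, so the coordinates below belong to GRCm38 and not to the authors' mapping. Of the 9 genes, 7 held at least 1 such match. Col5a1 held 4 and Col5a3 held 3, and Col1a1, Col3a1, Col5a2, Col6a2 and Col6a3 held 1 each. Col1a2 and Col6a1 held none, and only shorter or shifted matches (GGTGCT or GGTGCTA, which both overlap the longer ones) occurred in their 3′ UTRs, 2 in each. Other collagens held such matches too. With them counted in, Col5a1 held 7, Col1a1, Col3a1 and Col5a3 held 3 each, Col5a2 held 2, and Col6a2 and Col6a3 held 1 each. For comparison, 15.5% of 12145 tested genes with a 3′ UTR held at least 1 match, 2.35% at least 2 and 0.469% at least 3.

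The 8-base matches of the measured chains are shown in capitals with the 22 bases before them, because they are the sites against which the differences below can be read. They lay in the 3′ UTR part of the last exon at chr11:94952516-94952545 (Col1a1, + strand, exon 51 of 51), chr1:45348960-45348989 (Col3a1, + strand, exon 51 of 51), chr2:28038012-28038041 and chr2:28038328-28038357 (Col5a1, + strand, exon 66 of 66), chr1:45374965-45374994 (Col5a2, - strand, exon 54 of 54), chr9:20770503-20770532 (Col5a3, - strand, exon 67 of 67) and chr10:76598750-76598779 (Col6a2, - strand, exon 28 of 28).
Col1a1: gggtggggtgggaaggaatttcTGGTGCTA
Col3a1: ttccaacttcaaaatgtctcaaTGGTGCTA
Col5a1 site 2: aattttttacacttgtctcttgTGGTGCTA
Col5a1 site 3: ttgttcagttgctgaatgtttgTGGTGCTA
Col5a2: attataacttttcttttaatgaTGGTGCTA
Col5a3 site 2: tccacccctccaccaggcctttTGGTGCTA
Col6a2: tgtttgagagcacaaatgggggTGGTGCTA
Such an 8-base match was present in 3.29% of the tested genes with a 3′ UTR. The map of the matches shows their places. The first 2 matches of Col5a1 began 988 and 1018 bases after its stop codon, closer together than any other neighbouring matches in these genes.

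**Figure D1:**
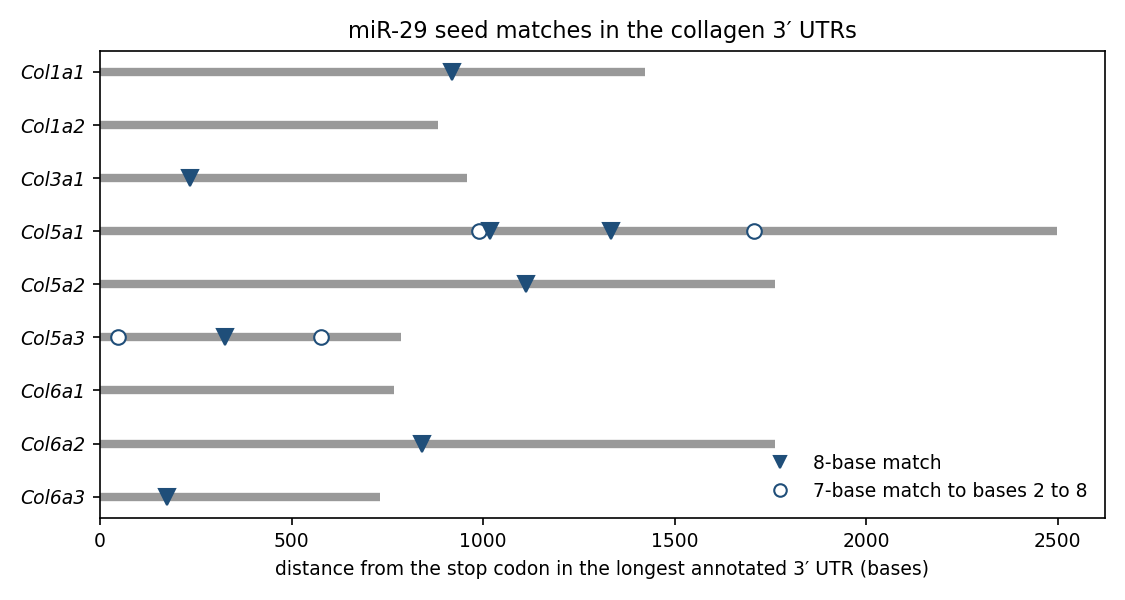
Positions of miR-29 seed matches (triangles, TGGTGCTA, and open circles, TGGTGCT without the A) along the longest annotated 3′ UTR of each of the 9 collagen genes, in bases from the stop codon. Col5a1 carries 4 matches and Col5a3 carries 3, while the grey bars of Col1a2 and Col6a1 carry none.

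The authors scaled each liver to an upper quartile of about 1000 over its detected genes and listed a gene without reads at 1. One read was worth between 9.80 and 24.4 in this unit. Total reads on genes ranged from 8217212 to 19062437 in saline livers and from 7696081 to 15079236 in LNA29 livers, of which albumin took between 35.7% and 46.9%. Saline replicate 49 stood apart, with the lowest albumin share (the other livers had at least 43.6%) and the strongest trend of its values with transcript length (Spearman rho 0.594 over 8847 genes, against -0.397 to 0.347 in the others). The collagens are rare mRNAs in liver, and the 6 fibrillar chains together gave between 77 and 200 reads in a saline liver and between 55 and 206 in an LNA29 liver.

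To ask whether collagen mRNAs differed after inhibition of miR-29, the 6 LNA29 livers were compared with the 6 saline livers. Col3a1 rose, and it was the only one of the 8 measured collagens to pass the test across all genes (limma on log2(value + 1), Benjamini-Hochberg adjusted p under 0.05). For comparison, 0.0721% of the 12486 tested genes were called higher and 0.0881% lower. At an unadjusted p under 0.05, limma put 4 of the 8 collagens higher in LNA29 livers (Col3a1, Col6a1, Col5a1 and Col1a2), against 1.95% of all tested genes, and none lower, against 5.97%. Enumerating all 924 ways to divide the 12 livers (two-sided exact permutation test) gave 4 of 8 higher as well, against 2.15%. The thresholds of the study were a ratio of means of 1.5 or more with an unadjusted one-tailed p no higher than 0.05. Under them, 5 of the 8 were higher (Col1a1 in addition), against 1.96%. All 6 livers of each group were used, whereas the paper also computed fold changes after discarding data points far from the group mean. The median log2 difference of the 8 collagens was 0.66, and that of all tested genes was -0.093. In these whole-liver samples, a change in the number of cells of a type and a change in RNA per cell cannot be told apart.

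Col3a1, the single chain of type III collagen, ranged in saline livers from 157.9 to 317.5 with a median of 217.8, and in LNA29 livers from 341.5 to 937.5 with a median of 663.1. Every LNA29 liver lay above every saline liver, which held for 1 of the 8 collagens and for 0.272% of all tested genes. The saline mean was 222.1 ± 57.58 and the LNA29 mean 650.1 ± 252.5 (SD, n = 6 each), which gave a log2 difference of 1.48 (standard error 0.28, limma adjusted p = 0.0438), or 2.80-fold with a 95% interval of 1.87 to 4.19. The exact permutation test gave p = 0.00216, the smallest that 6 livers against 6 can give. The gap between the groups was narrow. The lowest LNA29 value rested on 14 reads (exact Poisson 95% interval 7.65 to 23.5, counting error only) and exceeded the highest saline value by 24.0, in a library in which 1 read was worth 24.4. Without any 1 liver the log2 difference stayed between 1.36 and 1.65. The exact permutation p was at most 0.00433, a bound fixed in advance because leaving out a liver cannot make separate groups overlap. The limma adjusted p passed 0.05 in 10 of these 12 fits (range of the 12, 0.0288 to 0.126). It remained under 0.05 only when saline replicate 45 or LNA29 replicate 46 was left out. Without the filter on low values it was 0.145.

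**Figure D2:**
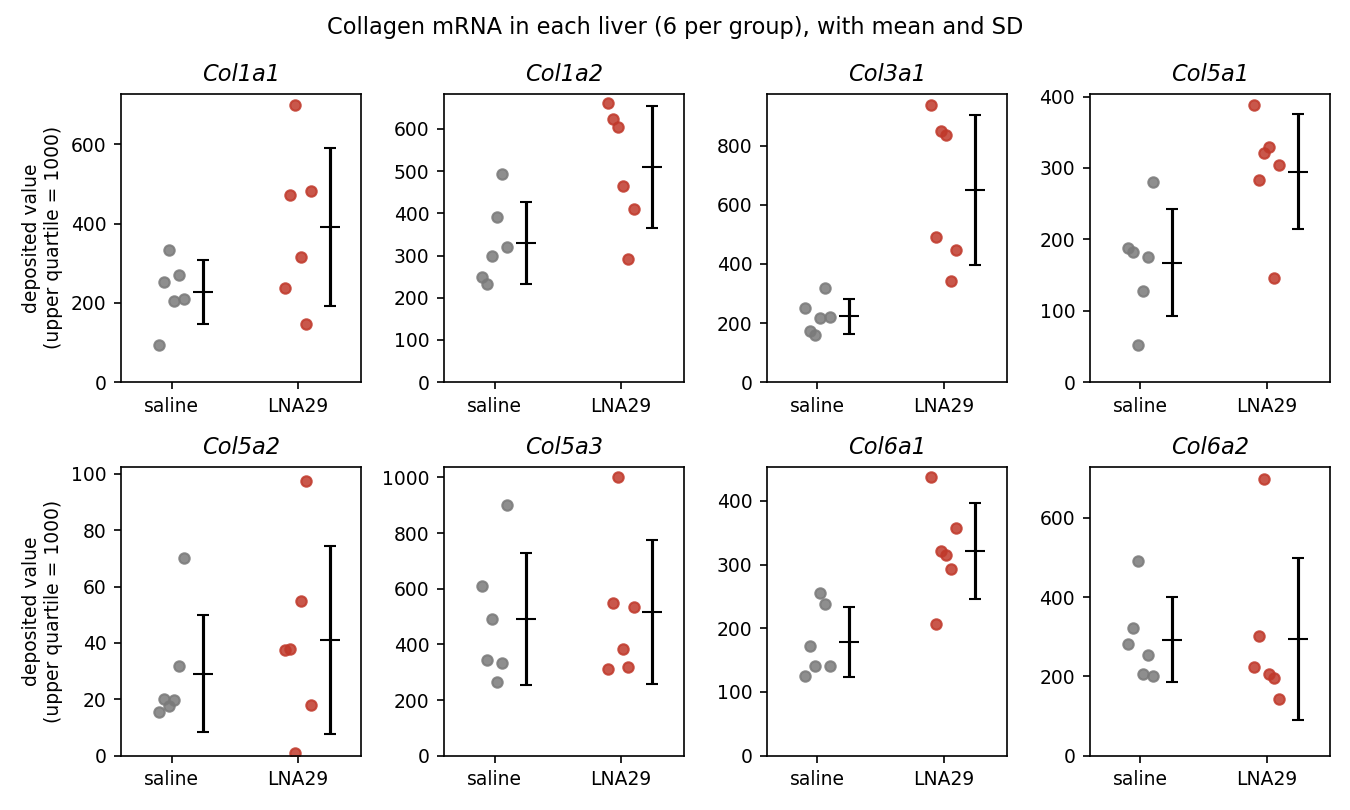
Deposited values (linear scale, upper quartile of detected genes about 1000) of 8 collagen mRNAs in 6 saline livers (grey) and 6 LNA29 livers (red), with the mean and SD in black beside the points. The Col3a1 groups do not overlap, with 317.5 as the highest saline value and 341.5 as the lowest LNA29 value, and the other 7 panels overlap.

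The type I chains had higher means in LNA29 livers but did not pass the test across all genes. Col1a2 ranged from 232.3 to 492.1 in saline livers (median 309.1) and from 292.7 to 662.5 in LNA29 livers (median 534.8). In LNA29 livers, 3 of 6 values lay above the highest saline value. The log2 difference was 0.62 (standard error 0.25, limma adjusted p = 0.513, exact permutation p = 0.0433), and the exact p passed 0.05 in 8 of the 12 fits that left out 1 liver (saline replicate 43, 47, 49 or 51 or LNA29 replicate 44, 48, 52 or 54), with a highest value of 0.0823. Col1a1 ranged from 93.75 to 333.3 in saline livers (median 231.3) and from 146.3 to 698.1 in LNA29 livers (median 393.4). Again, 3 of 6 LNA29 values lay above all saline values, and the spread within the LNA29 group was wide (391.8 ± 199.2, against 227.6 ± 80.35 in saline livers; SD, n = 6 each). The log2 difference was 0.70 with a 95% interval from -0.075 to 1.48 (exact permutation p = 0.123, limma adjusted p = 0.688). Replicate 46 of the LNA29 livers had the lowest Col1a1, Col1a2, Col3a1 and Col5a1 values of its group and the fewest reads of all livers. Without it the log2 difference of Col1a1 was 0.95 (exact permutation p = 0.0281). This was the only 1 of the 12 fits leaving out 1 liver with an exact p under 0.05. Without saline replicate 43 the difference was 0.47 (exact permutation p = 0.251, the highest of the 12). By quantitative PCR in a larger set of mice, the paper reported significantly higher liver Col1a1 after LNA29.

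The chains of type V collagen had different profiles. Col5a1, which carries the most seed matches, ranged from 52.63 to 280.0 in saline livers (median 178.2) and from 146.3 to 387.5 in LNA29 livers (median 312.2). The lowest saline value rested on 3 reads (exact Poisson 95% interval 0.619 to 8.77). Of the LNA29 livers, 5 lay above all saline livers and replicate 46 lay within their range. The log2 difference was 0.91 (standard error 0.36, exact permutation p = 0.0368, limma adjusted p = 0.498). The exact p passed 0.05 in 6 of the 12 fits that left out 1 liver (saline replicate 47 or LNA29 replicate 44, 48, 50, 52 or 54), with a highest value of 0.0736.

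Col5a3, which carries 3 seed matches, ranged from 264.7 to 900.0 in saline livers (median 417.3) and from 312.5 to 1000 in LNA29 livers (median 459.6), and the groups overlapped nearly throughout. The means were 490.3 ± 236.3 and 516.0 ± 258.5 (SD, n = 6 each), with a fold of 1.05 and a 95% interval of 0.658 to 1.69 (exact permutation p = 0.825, limma adjusted p = 0.979). The highest saline value was that of replicate 49, and without it the log2 difference was 0.28 (limma adjusted p = 0.882). Col5a2 was close to the limit of detection, with 1 to 7 reads in a saline liver and 0 to 4 in an LNA29 liver. Its 95% interval, from 0.304-fold to 3.28-fold, covers both a large increase and a large decrease, so that no difference was detectable at this depth.

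Of the type VI chains, Col6a1 ranged from 125.0 to 254.9 in saline livers (median 156.0) and from 207.5 to 437.5 in LNA29 livers (median 317.9). Only replicate 52 of the LNA29 livers fell within the saline range. The saline mean was 178.3 ± 55.20 and the LNA29 mean 321.8 ± 75.61 (SD, n = 6 each), which gave a log2 difference of 0.87 (standard error 0.26, exact permutation p = 0.00649). It did not pass the test across all genes (limma adjusted p = 0.276). The exact p was at most 0.0130 without any 1 liver. Col6a2, whose product pairs with that of Col6a1 in the same molecule, ranged from 200 to 491.2 in saline livers (median 267.6) and from 142.9 to 698.1 in LNA29 livers (median 215.2). LNA29 replicates 46 and 50 lay below all saline livers, and replicate 48 lay above them all. The log2 difference was -0.13, with an interval from -0.85 to 0.60 (exact permutation p = 0.738, limma adjusted p = 0.965).

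**Figure D3:**
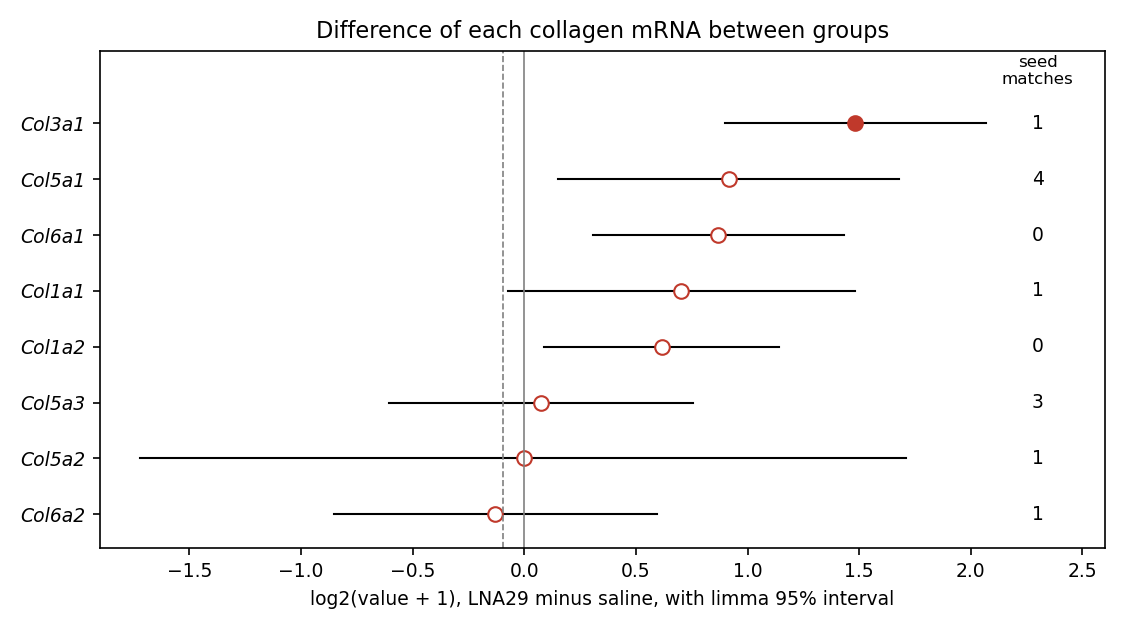
Difference of mean log2(value + 1) between 6 LNA29 and 6 saline livers for 8 collagens, with the limma 95% interval. Numbers at the right count miR-29 seed matches in the 3′ UTR (TGGTGCT, with or without a following A). GGTGCTA without the T before it was not counted. The filled point is Col3a1 (limma adjusted p = 0.0438), open points did not pass, and the dashed line is the median of all tested genes (-0.093).

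The number of matches to bases 2 to 8 did not order the collagens by their differences. Among the 6 measured genes with such a match, log2 differences ran from -0.13 (Col6a2) to 1.48 (Col3a1). Col1a2 and Col6a1, with only shorter or shifted matches (2 in each), had 0.62 and 0.87. Over all tested genes with a 3′ UTR, the collagens included, the median log2 difference was -0.10 for 10268 genes without a match, -0.054 for 1591 with 1, 0.013 for 229 with 2 and 0.075 for 57 with 3 or more. An unadjusted limma p under 0.05 with a higher level in LNA29 livers was found in 1.48%, 3.46%, 7.86% and 14% of these classes. Genes with only GGTGCT or GGTGCTA count here as without a match, and the lengths of the 3′ UTRs were not compared between the classes. A match to these letters is a description of the sequence and does not show a working site.

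Chains of the same collagen type, and Col1a1 with Col3a1, whose products occur in the same fibrils, were compared by the log2 ratio of their values within each liver, for 6 ratios. None differed between the groups after adjustment over the 6, nor at an exact permutation p under 0.05. The Col1a1/Col1a2 ratio, that of the chains of type I collagen, had a mean on the log2 scale of -0.59 ± 0.62 in saline livers and -0.50 ± 0.67 in LNA29 livers (SD, n = 6 each; exact permutation p = 0.797, adjusted p = 0.956). The Col6a1/Col6a2 ratio was -0.70 ± 0.76 in saline livers and 0.30 ± 0.93 in LNA29 livers (exact permutation p = 0.0736, adjusted p = 0.266). Likewise, the Col5a1/Col5a3 ratio was -1.58 ± 0.87 and -0.74 ± 0.69 (exact permutation p = 0.0887, adjusted p = 0.266). The Col1a1/Col3a1 ratio was -0.024 ± 0.84 and -0.80 ± 0.85, so that the larger difference of Col3a1 was not separated from that of Col1a1 by these livers (exact permutation p = 0.149, adjusted p = 0.299). Without LNA29 replicate 48, the Col5a1/Col5a3 and Col6a1/Col6a2 ratios had unadjusted exact permutation p of 0.0476 and 0.0260, and without saline replicate 53 the latter had 0.0433. In the other fits that left out 1 liver, both ratios stayed above 0.05. The highest exact permutation p were 0.201 for Col5a1/Col5a3 and 0.147 for Col6a1/Col6a2.

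To set the levels of the chains side by side, each value was divided by the length of the longest annotated transcript in kb. In saline livers the order of mean levels per kb was Col5a3 (80.1 ± 38.6; SD, n = 6), Col6a2 (62.9 ± 23.2), Col1a2 (61.9 ± 18.2), Col6a1 (43.5 ± 13.5), Col3a1 (39.9 ± 10.3), Col1a1 (38.4 ± 13.6), Col5a1 (19.9 ± 8.92) and Col5a2 (4.40 ± 3.14). Each gene overlapped the next in its range over livers. The first place of Col5a3 rested on saline replicate 49, without which Col5a3 averaged 66.7 and Col6a2 66.9 (an alternative chosen after seeing the data). In LNA29 livers, Col3a1 came first with 117 ± 45.4, followed by Col1a2 with 95.3 ± 26.9 and Col5a3 with 84.3 ± 42.2 (SD, n = 6 each). Only the last neighbours, Col5a1 (35.1 ± 9.62) and Col5a2 (6.20 ± 5.03), did not overlap in range. The type V chains differed widely in level within a liver, with Col5a2 lowest of all measured collagens in both groups.

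The livers did not keep one order across the collagens. Saline replicate 47 had the lowest Col3a1 and Col5a1 values of its group and the highest Col1a1 and Col6a2 values. Saline replicate 49 had the highest values of all 3 type V chains. LNA29 replicate 48 had the highest Col1a1, Col5a3 and Col6a2 values of its group and no Col5a2 read. With the transcript length trend of each library as a covariate, the log2 differences were 1.49 for Col3a1 (limma adjusted p = 0.00949), 0.92 for Col5a1 (0.179), 0.87 for Col6a1 (0.114) and 0.077 for Col5a3 (0.948), with limma adjusted p in parentheses.

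Among the genes whose deviations from their group means followed those of the 8 collagens most closely over the 12 livers were Dcun1d2 (Pearson r 0.961 with the mean standardised deviation of the collagens), Zmynd15 (0.900), Mmp2 (0.884), Tmem60, Zfyve20, Hsdl1, Plk2, Chpf and Cd59a (0.815 for the last). They were picked as the highest of 8983 genes with a mean no lower than 100, and all points share the libraries and their depth, so these values are descriptive. Mmp2, a metalloproteinase that cleaves collagen, averaged 61.44 ± 25.38 in saline livers and 141.4 ± 71.74 in LNA29 livers (SD, n = 6 each; limma adjusted p = 0.427).

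Genes that make, bind or sense collagen were examined as 9 lists. Of their 87 genes, 85 had a row and 62 were tested, and limma called none at an adjusted p under 0.05. At an unadjusted p under 0.05, 2 of the 62 were higher and 5 lower in LNA29 livers, where 1.95% and 5.97% of all tested genes were. The signs below can be read against the 38.6% of all tested genes that had a log2 difference above 0, with a median of -0.093. The other fibrillar collagens gave little signal: Col2a1 and Col11a1 had no reads in any liver, and Col24a1 was below the filter. Col27a1 was the exception in abundance, with 90.91 to 328.1 in saline livers (median 140.8) and 1 (no reads) to 132.1 in LNA29 livers (median 91.31). Its groups overlapped, and its lower level in LNA29 livers, opposite in sign to Col3a1, did not pass the test across all genes (exact permutation p = 0.0476, limma adjusted p = 0.613). Of the other type VI chains, Col6a4 had no reads and Col6a5 and Col6a6 were below the filter. Of 9 fibril-associated collagens with a row, 4 were tested, and Col14a1, which decorates collagen fibrils, averaged 567.5 ± 58.79 in saline livers and 503.2 ± 113.8 in LNA29 livers (exact permutation p = 0.253).

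Of the 11 tested genes for hydroxylation and glycosylation of procollagen, 10 had a log2 difference above 0, with a list median of 0.10. The smallest of these 10 was 7.8e-04. At an unadjusted limma p under 0.05, 1 of the 11 was higher and 1 lower. Lepre1, the prolyl 3-hydroxylase that modifies newly made collagen, ranged from 298.2 to 396.8 in saline livers (median 331.7) and from 390.2 to 767.1 in LNA29 livers (median 547.2). The lowest LNA29 value lay just below the highest saline value (log2 difference 0.68, exact permutation p = 0.00433, limma adjusted p = 0.257). P4hb, the protein disulfide isomerase subunit of prolyl 4-hydroxylase, which also folds many other secreted proteins, averaged 49426 ± 4353 in saline livers and 36965 ± 7057 in LNA29 livers (exact permutation p = 0.00649, limma adjusted p = 0.413). Among 12 tested genes for folding and export, 3 had a difference above 0 and the median was -0.092. Serpinh1, the collagen chaperone HSP47, ranged from 206.3 to 364.9 in saline livers (median 296.8) and from 315.1 to 651.1 in LNA29 livers (median 400.7), with overlap (log2 difference 0.58, exact permutation p = 0.0130, limma adjusted p = 0.498). Sec31a, a coat protein of transport vesicles, averaged 5332 ± 851.9 and 4633 ± 608.8 (exact permutation p = 0.134).

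Genes that act on collagen outside the cell were grouped by role. Of 5 tested genes for propeptide cleavage, 1 had a difference above 0, with Bmp1, the C-propeptide protease, at 4936 ± 548.1 in saline livers and 4340 ± 640.4 in LNA29 livers (exact permutation p = 0.0974) and Adamts2, the N-propeptide protease, at 207.8 ± 65.28 and 177.1 ± 44.99 (exact permutation p = 0.377). The 4 tested lysyl oxidases, which cross-link collagen, all had means under 100 over the 12 livers and split evenly in sign. Of 14 tested collagen-binding matrix proteins, 3 had a difference above 0 and the median was -0.49. Fn1, fibronectin, averaged 32882 ± 10462 in saline livers and 21620 ± 6833 in LNA29 livers (exact permutation p = 0.0498, limma adjusted p = 0.487), and hepatocytes also make it. Prelp averaged 2186 ± 341.6 and 1790 ± 517.5 (exact permutation p = 0.123). Of the 10 tested receptors, 5 lay on each side, with Itgb1, the β1 chain of the collagen-binding integrins, at 3020 ± 495.3 and 3078 ± 587.8 (exact permutation p = 0.890) and Antxr2, at 401 ± 115.0 and 297.9 ± 133.0 (exact permutation p = 0.158).

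**Figure D4:**
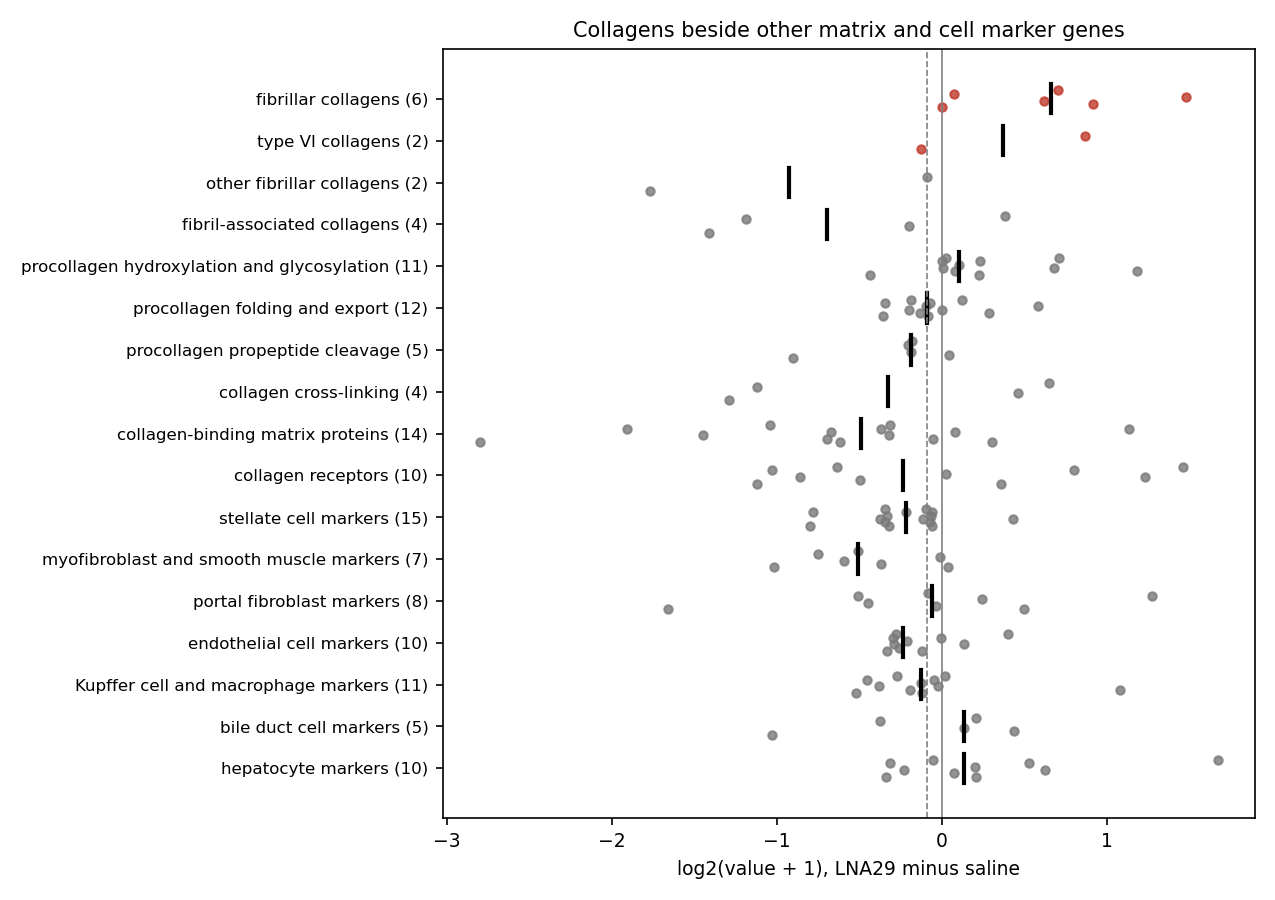
Difference of mean log2(value + 1), LNA29 minus saline, of each tested gene (points) in the measured collagens (red) and the other lists (grey), with the number of tested genes in parentheses and the list median as a black bar. The median of the 6 fibrillar chains is 0.66, that of the stellate cell markers is -0.22, and the dashed line is the median of all tested genes (-0.093).

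Markers of the cells that make collagen were examined beside it. Of 16 stellate cell markers, 15 were tested, none was called, and 1 had a difference above 0, with a list median of -0.22. Their summed level ranged from 17649 to 25183 in saline livers and from 17694 to 22186 in LNA29 livers, and all 16 had reads in at least 1 liver. Ngfr, a receptor found on stellate cells, averaged 252.0 ± 95.48 and 142.2 ± 37.87 (exact permutation p = 0.0195, limma adjusted p = 0.487), and Pdgfrb averaged 210.4 ± 33.23 and 179.5 ± 89.10 (exact permutation p = 0.258). The 7 tested markers of myofibroblasts and smooth muscle had a median of -0.51, with Timp1 without reads in every liver. Their summed level was 1078 to 6000 in saline livers (median 1497) and 800.0 to 2189 in LNA29 livers (median 1233). Tpm2 averaged 1193 ± 612.0 and 652.1 ± 146.9 (exact permutation p = 0.0498, limma adjusted p = 0.453), and Myh11 averaged 270.9 ± 341.7 and 134.8 ± 72.56 (exact permutation p = 0.411). Their medians lay closer together, at 1017 and 704.4 for Tpm2 and at 148.5 and 119.4 for Myh11. The highest saline values were 2211 and 964.9. The 8 tested portal fibroblast markers had a median of -0.060 and summed levels of 281.2 to 754.4 and 300.0 to 867.9, with Entpd2 at 112.4 ± 21.59 and 139.9 ± 58.38 (exact permutation p = 0.385). In each of these lists the summed levels of the groups overlapped. The stellate sum was mostly Ecm1 (66.4% to 76.8% of it in a liver), and without Ecm1, left out after seeing the data, it was 5831 to 6595 in saline livers and 4422 to 6022 in LNA29 livers.

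Of the other cell types of the liver, the 10 endothelial markers had a median log2 difference of -0.24, with 2 above 0, 8 below 0 and none called. Their summed levels were 10094 to 11263 in saline livers and 8318 to 9700 in LNA29 livers, which did not overlap. Stab1, a scavenger receptor of sinusoidal endothelium, averaged 1579 ± 171.4 and 1257 ± 196.5 (exact permutation p = 0.0108, limma adjusted p = 0.567), and Eng averaged 3493 ± 479.9 and 2881 ± 403.8 (exact permutation p = 0.0390). These cells also make some collagen, and the part of this difference in the collagen values was not tested. The 11 macrophage markers had a median of -0.13 and summed levels of 14266 to 23211 in saline livers and 13232 to 25356 in LNA29 livers. The 5 tested bile duct markers had a median of 0.13 and summed levels of 603.2 to 890.6 and 414.6 to 867.9. The 10 hepatocyte markers, all with reads, had a median of 0.13.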

How the data were processed

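Single 100-base reads of polyadenylated liver RNA, 1 library per mouse, were mapped by the authors with MapSplice2, and RSEM gave their number per gene. The processing notes name RSEM and mm9, and versions are not given in the sources used here. The authors deposited signal values, scaled per library so that the upper quartile over detected genes is 1000, and 1 stands for no reads. Between 92.2% and 93.9% of values were a whole number of reads (within 0.02) after division by the worth of 1 read, and so were all 96 collagen values, from which the reads quoted were taken. Columns of the authors' own means, fold changes and p-values and 3 unnamed columns with values were not used.

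Values were compared as log2(value + 1), a scale on which the difference of a low gene depends on the value of 1 given for no reads, with limma 3.58.1 (R 4.3.3, trend, Benjamini-Hochberg over 12486 genes) and with two-sided exact permutation tests (Python 3.11.15, scipy 1.17.1). No covariate entered the main fit. The limma script was tested on simulated data. Collagens and lists were chosen with earlier results of these data known. From each other list, genes past the adjusted threshold were named, or else those of smallest limma p with a mean of at least 100, up to 2. The 10 genes closest to the collagens over livers were also named, except 1 that is not reported here. Genes outside these rules are named only where counts of 5 or fewer or reads of 0 are described, chosen after their values were seen. Of the tested genes, 97.4% matched a GENCODE M21 transcript. Alternatives were pseudocounts, filters, a shift to a common median, array weights, a robust fit, a length covariate, the thresholds of the study and leaving out each liver.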

Additional observations from a re-analysis of the deposited data

Results flagged for a closer look

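Among 28 groups of 6 livers (8 collagens and 6 ratios in each treatment), 2 held a liver far from the other 5, where chance gives about 1.4. For Col5a1 among LNA29 livers, replicate 46 had a log2(value + 1) of 7.20 and the other 5 lay between 8.15 and 8.60. This value rested on 6 reads, and without this liver the log2 difference of Col5a1 was 1.10 (exact permutation p = 0.00433). For the log2 ratio of Col5a1 to Col5a3 among saline livers, replicate 47 had -3.20 and the other 5 lay between -1.70 and -0.91. Its Col5a1 value rested on 3 reads, and without this liver the difference of the ratio between the groups fell from 0.84 to 0.52 (exact permutation p = 0.173).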

How the results depend on the processing

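The count of 1 collagen higher in LNA29 livers was 0 without the filter on low values and 5 under the thresholds of the study, which added Col1a1, Col1a2, Col5a1 and Col6a1. With 1 liver left out it was between 0 and 1, and the count of ratios with an exact permutation p under 0.05 was between 0 and 2. The count of collagens without overlap was 2 without LNA29 replicate 46 or 52 and 1 otherwise. It could not fall below 1, because leaving out a liver cannot create overlap. The count called in the other 9 lists, 0, stayed at 0 with each liver left out and with the common median. In alternatives added after seeing the data it was 7 under the thresholds of the study (Lepre1 and Serpinh1 higher; Col27a1, Col20a1, Fmod, Fn1 and Efemp2 lower), 1 with the length covariate (Fn1, lower) and 0 with both pseudocounts, both filters, array weights and the robust fit. Col3a1, Col6a1, Col1a1, Col1a2 and Col5a1 kept a positive difference under all alternatives run. The difference of Col5a2, -0.0030, changed sign with a pseudocount of 10 (0.20), the common median (0.042), the length covariate (0.0098) and array weights (0.44), and the Col5a2/Col5a3 ratio became 0.13 with a pseudocount of 10. With 1 liver left out, signs also changed for Col5a2 (-0.39 to 0.74), Col5a3 (-0.14 to 0.28), Col6a2 (-0.42 to 0.036), Col1a1/Col1a2 (-0.076 to 0.28) and Col5a2/Col5a3 (-0.58 to 0.88). The causes were not tested. The number of genes called in all was 20, and 148 with the length covariate, 58 with array weights, 10 with the common median and 5 without a filter. The planned count-model tests (edgeR and DESeq2) were not run, because reads could not be recovered as whole numbers for enough values in every library. No paired analysis was possible because the groups share no animal numbers. Few reads per collagen, 0 to 90 in a liver, limit all of these values.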

Other observations

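Ahsg, which encodes the liver plasma protein fetuin-A, ranged from 1212500 to 4270490 in saline livers (median 3268779) and from 7841411 to 10351189 in LNA29 livers (median 9541884), without overlap. Its log2 difference was 1.67 (exact permutation p = 0.00216, unadjusted). In limma, which draws the variance of each gene towards a trend with level, the standard error was 0.73 and the unadjusted limma p was 0.0351. Ahsg did not pass the test across all genes (limma adjusted p = 0.582). Tat, tyrosine aminotransferase, averaged 78003 ± 33565 and 113738 ± 46140 (SD, n = 6 each; exact permutation p = 0.193). The 10 hepatocyte markers had a median log2 difference of 0.13, and 1 of them, Ahsg, had an unadjusted limma p under 0.05. Marco, a scavenger receptor of macrophages, averaged 513.5 ± 240.7 in saline livers and 1257 ± 1081 in LNA29 livers (exact permutation p = 0.0368, limma adjusted p = 0.391), while Vsig4, another macrophage receptor, averaged 329.7 ± 70.74 and 256.9 ± 145.8 (exact permutation p = 0.173). Of the bile duct markers, Spp1 averaged 373.7 ± 99.68 and 285.1 ± 55.86 (exact permutation p = 0.0693), and Sox9 averaged 168.5 ± 51.81 and 235.7 ± 86.09 (exact permutation p = 0.182).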
